A study of Triticum aestivum with 24 samples.

Results

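Leaves of a wheat line labelled DEH2 were compared with leaves of a line labelled UBQ after water had been withheld. The comparison uses 6 of the 24 RNA sequencing libraries of the study, 3 labelled DEH2 drought and 3 labelled UBQ drought, chosen by their labels. Both lines were made from Triticum aestivum Fielder, a spring wheat, and carry a wheat TOR gene (TaTOR), in UBQ behind a promoter called UBQ and in DEH2 behind a promoter called DEH2. The plants of both groups were kept at 80% field capacity until 4 weeks of age, and water was then withheld over 12 days. The sources used here give neither the day of leaf sampling nor the number of transformation events behind each line. Fielder itself (WT), another TaTOR line (DREM, with a promoter of that name), and well-watered libraries of all 4 genotypes are used below only where a result needs a reference.

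TOR, the target of rapamycin, is a protein kinase conserved across eukaryotes that promotes protein synthesis and growth when nutrients and energy are plentiful and restrains recycling of cell components. Plants under water deficit close their stomata through abscisic acid signalling, accumulate protective proteins and solutes, and lower the transcripts of photosynthesis. TOR signalling and abscisic acid signalling are known from Arabidopsis to restrain each other.

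The deposited values are normalized counts for 107891 gene identifiers. They summed to between 35600000 and 38300000 in the 6 libraries, with estimated depths of 37100000 to 53000000 reads. Of the identifiers, 60088 reached a value of 10 in at least 3 of the 24 libraries and were tested. The other identifiers were too low to test, and 24378 of them were 0 in all libraries. Across genes, the libraries of a group correlated at r = 0.981 to 0.985 and the DEH2 drought libraries with the UBQ drought libraries at 0.925 to 0.938. The labels number the replicates without saying whether they are separate plants, so p-values measure the spread between these libraries, which may be technical. No identifier had an entry among the gene names at hand, so genes are given by identifier without a role, and the level of TOR, which would check the labels, was not analysed here. An identifier such as TraesCS4B02G161000 names the chromosome, 4B, and the place in the gene order along it. In leaf tissue, fewer cells of a type and less RNA per cell cannot be told apart.

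Parts of some chromosomes differed between drought and well-watered libraries with the same line label, which touches every statement on these lines. Under drought, most tested genes of chromosome 6B up to TraesCS6B02G096400 were lower in UBQ than in DEH2, many of them almost lost. Most tested genes of 4B from TraesCS4B02G352100 to TraesCS4B02G398200 were higher in UBQ. The well-watered libraries with the same line label showed neither. These 2 regions of 6B and 4B were known from earlier results of the same libraries. They are described apart, without a test of either region as a set. Their counts of genes higher or lower come from the same gene-by-gene test as elsewhere and are descriptions. In the well-watered libraries other stretches differed. The first 329 tested genes of 1B had a median log2 difference, DEH2 minus UBQ, of -3.74 well-watered against 0.09 under drought, and 1939 genes of 2A had 0.84 against 0.00. Whether the 2 groups of a line label came from the same line and transformation event was not tested.

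The first question was how the lines differed under drought outside the 4B and 6B regions. A gene was called at a Benjamini-Hochberg adjusted p under 0.05 from limma, a linear model across all genes and all 8 groups. Of 59557 genes outside the regions, 23738 were called, or 39.9%. Of these, 11699 were higher in DEH2 (19.6% of the genes tested) and 12039 were lower (20.2%). Most differences were small, and those of at least 2-fold numbered 3243 higher (5.45%) and 4496 lower (7.55%). At 4-fold and more, 604 genes were higher in DEH2 and 1834 were lower. The median difference over these genes was 0.00 on the log2 scale, and the values of the 6 libraries did not overlap between the lines for 31751 genes (53.3%). The authors' scaling holds the median near 0, so a shift of all transcripts together would not show.

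WT and DREM under drought, which did not enter the contrast, show which line stood further away. Of the 3243 genes at least 2-fold higher in DEH2, the DEH2 level lay nearer to both WT drought and DREM drought in 1245 genes (38.4%), and the UBQ level lay nearer to both in 702 (21.6%). Of the 4496 genes at least 2-fold lower in DEH2, the DEH2 level lay nearer to both in 1620 genes (36.0%) and the UBQ level in 1233 (27.4%). In the rest, each line was nearer to 1 of the references. Departures from the other genotypes thus occurred in both lines.

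The largest differences were between a line that used a gene and a line in which it was near silent. TraesCS4B02G161000 had normalized counts of 877.5, 994.3 and 842.0 in DEH2 and of 0, 0 and 4.21 in UBQ. The 3 DEH2 libraries lay together and the UBQ libraries at the floor of detection, with about 6.13 reads in all, and the ratio of means was 644 (95% Poisson interval 298 to 1731, counting error only; log2 difference 9.03 ± 0.40 SE, limma adjusted p = 4.71e-12). WT drought, at 713.0 ± 36.3, and DREM drought, at 1344 ± 61.5 (SD, n = 3 each), sided with DEH2. This gene lies in a short interval of 4B described further on.

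TraesCS5B02G076900 had 385.7, 417.4 and 371.4 in DEH2 and 0, 0 and 1.61 in UBQ. The groups did not overlap, and the log2 difference was 8.15 ± 0.24 (SE; limma adjusted p = 2.05e-19). In this gene the references parted, since WT drought stood at 453.5 ± 62.9 and DREM drought at 37.1 ± 11.3 (SD, n = 3 each). Well-watered, the gene was at a similar level in both lines, 147.0 ± 3.99 in DEH2 and 152.2 ± 10.4 in UBQ (SD, n = 3 each; limma adjusted p = 0.919).

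TraesCS2B02G599800 was the reverse, at 0, 0 and 25.6 in DEH2 and at 2537, 2133 and 2253 in UBQ. All reads of DEH2 came from replicate 3, and UBQ was high in every library. The ratio of means was 270 (95% Poisson interval 189 to 401), with a log2 difference of -9.59 ± 1.29 (SE; limma adjusted p = 1.02e-05). WT drought, at 28.1 ± 2.19, and DREM drought, at 13.4 ± 19.4 (SD, n = 3 each), were low as well, so UBQ stood apart from the other 3 genotypes.

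TraesCS5D02G388700 had 0, 0 and 17.9 in DEH2 and 1451, 1377 and 1497 in UBQ. Replicate 3 again held all DEH2 reads, and the log2 difference was -9.08 ± 0.72 (SE; limma adjusted p = 5.06e-10). DREM drought was intermediate at 129.3 ± 22.3 (SD, n = 3) and the WT drought libraries lay between 0 and 2.95.

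Among genes with a mean of at least 500 in both lines, the differences were smaller but rested on many more reads. TraesCS6D02G016900 had 4910.1, 5168 and 4464 in DEH2 and 546.8, 634.2 and 561.7 in UBQ. The lines did not overlap, at a ratio of 8.34 (log2 difference 3.06 ± 0.25 SE, limma adjusted p = 1.38e-08), and DREM drought, at 4378 ± 217 (SD, n = 3), was close to DEH2 whereas WT drought was at 57.9 ± 28.3 (SD, n = 3). TraesCS2A02G342600 had 4284, 4145 and 4493 in DEH2 and 777.4, 609.6 and 681.4 in UBQ, a log2 difference of 2.65 ± 0.08 (SE; limma adjusted p = 4.71e-20). This gene was high in well-watered leaves, between 27392 and 51239 as means of the 4 genotypes. The drought level in UBQ was thus the further from the well-watered level. TraesCS2A02G342600 lies in the 2A stretch that differed between the lines well-watered, where its own log2 difference was 0.24.

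TraesCS6A02G132200 was at 319.7, 240.8 and 976.6 in DEH2 and at 27849, 26818 and 29963 in UBQ. Replicate 3 was the highest of the DEH2 libraries, yet far below every UBQ library (log2 difference -6.06 ± 0.32 SE, limma adjusted p = 7.05e-11). TraesCS6A02G350500 was silent or nearly so in well-watered leaves of all 4 genotypes, with group means of 0 to 0.371. Under drought it reached 14806, 14855 and 14903 in UBQ but 1416, 370.1 and 514.0 in DEH2, where replicate 1 was the highest. WT drought, at 21674 ± 2099, and DREM drought, at 11423 ± 479 (SD, n = 3 each), were like UBQ, so DEH2 stood apart here (log2 difference -4.52 ± 0.31 SE, limma adjusted p = 2.82e-11).

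**Figure D1:**
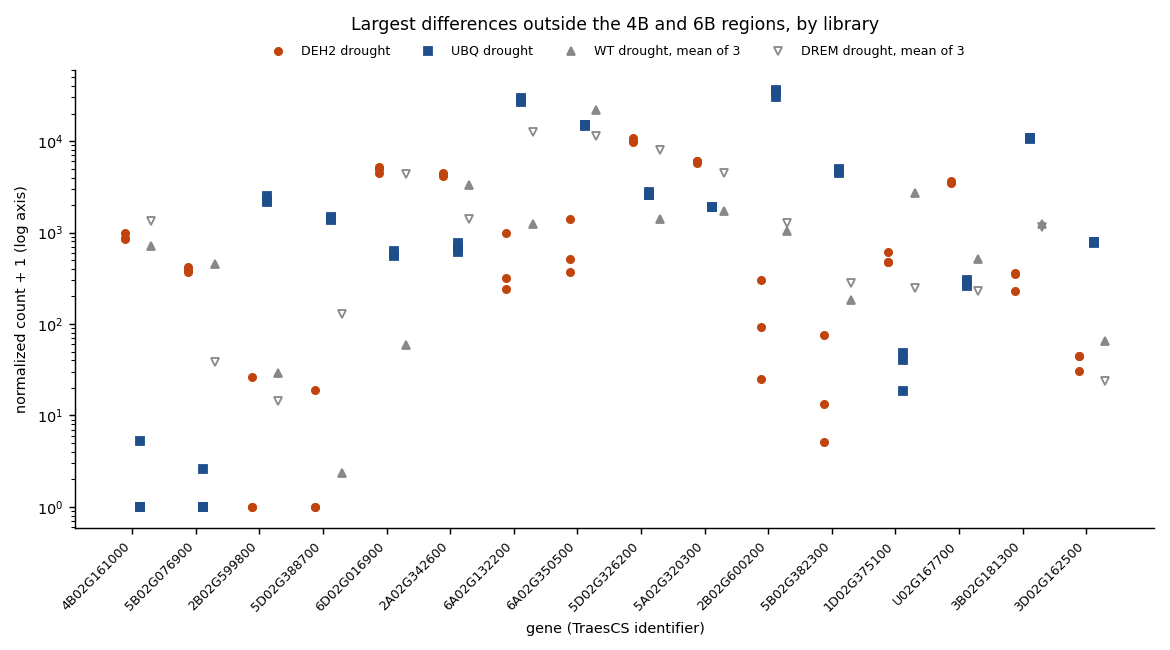
Normalized counts plus 1, on a log axis, of the genes with the largest differences outside the 4B and 6B regions and in the drought lists, in each of the 3 DEH2 and 3 UBQ drought libraries, with the means of 3 libraries of WT and DREM under drought. The points of the 2 lines do not overlap in any of the genes shown; the DEH2 points of near-silent genes spread most, as in TraesCS2B02G599800 with 0, 0 and 25.6.

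The 3 genes with the highest mean over the 6 libraries differed little between the lines. TraesCS1D02G375700 was between 178197 and 197638 in DEH2 and between 206230 and 215573 in UBQ, a log2 difference of -0.16 ± 0.04 (SE; limma adjusted p = 0.00209) that was 0.32 under quantile normalization. TraesCS1B02G388700 had a log2 difference of -0.09 ± 0.05 (SE; limma adjusted p = 0.128), and 0.83 under quantile normalization. TraesCSU02G056800, whose chromosome is unknown, ran from 77512 to 329516 within UBQ alone, around the 121056 to 128702 of DEH2, and no difference was detectable (limma adjusted p = 0.861).

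The second question was whether the lines differed in genes that drought changes in other genotypes. Lists were taken from WT and DREM, neither of which is part of the contrast: a gene was listed if drought changed it at least 2-fold, with an adjusted p under 0.05, in the same direction in both. The raised list held 5224 genes outside the regions, and 1944 of these were lower in DEH2 than in UBQ (37.2%), whereas 516 were higher (9.88%). Among all genes outside the regions these shares were 20.2% and 19.6%. At 2-fold and more, 1237 genes of the raised list were lower and 146 were higher. The median log2 difference was -0.34, against 0.00 over all genes. As a share of the library total, the raised list made up 10.7% ± 0.031 of DEH2 drought and 14.7% ± 0.23 of UBQ drought (SD, n = 3 each), and every DEH2 library lay below every UBQ library. An exact two-sided permutation test gave p = 0.1, the smallest value that 3 against 3 libraries allow. WT drought was at 9.70% ± 1.2 and DREM drought at 11.5% ± 0.17 (SD, n = 3 each), so UBQ had the highest share. The list was picked from the levels of WT and DREM, which limits this comparison. In well-watered leaves the same genes made up 1.81% ± 0.032 in DEH2 and 2.03% ± 0.023 in UBQ (SD, n = 3 each), so the list was high under drought in both lines. Well-watered, 1161 of the 5224 genes were lower in DEH2 and 578 higher, with a median log2 difference of -0.09. Over all genes outside the regions, 14.5% were lower and 14.0% higher well-watered. More genes of the list were thus lower than higher in DEH2 without drought too.

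The list of 6085 genes lowered by drought in WT and DREM moved the other way. In DEH2, 2409 of these were higher than in UBQ (39.6%) and 817 were lower (13.4%), with 1226 higher and 415 lower at 2-fold and more. The median log2 difference was 0.33. These genes made up 12.7% ± 0.32 of the library total in DEH2 drought and 7.23% ± 0.18 in UBQ drought (SD, n = 3 each; exact two-sided permutation p = 0.1, the smallest possible). WT drought was at 10.3% ± 1.3 and DREM drought at 7.13% ± 0.22 (SD, n = 3 each). Here UBQ was close to DREM, and DEH2 had the highest share under drought. The same limit holds, since WT and DREM picked the list. The well-watered levels were 31.9% ± 0.36 in DEH2 and 35.5% ± 1.1 in UBQ (SD, n = 3 each). Well-watered, 1203 genes of the lowered list were higher in DEH2 and 1004 lower. Of 7142 genes that were steady in WT and DREM, with a change under 0.5 log2 units and no call, 889 were higher and 830 were lower in DEH2, with a median of 0.03.

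The difference between the lines grew with the size of the drought effect. Of the 588 genes raised more than 16-fold in WT and in DREM, 45.7% were at least 2-fold lower in DEH2 and 1.53% at least 2-fold higher. Of the 1715 genes raised 2-fold to 4-fold, 9.74% were lower and 2.57% higher. Of the 352 genes lowered more than 16-fold, 28.7% were higher in DEH2 and 10.8% were lower. Measured against the well-watered libraries of each line itself, the raised list had a median log2 drought effect of 2.09 in DEH2 and 2.33 in UBQ, and the lowered list one of -2.15 and -2.38. In both lists the median effect in DEH2 was the smaller. These medians also contain the well-watered libraries, whose difference between the lines on 1B and 2A was absent under drought. The DREM drought effect behind the lists has a like limit, since DREM drought was near 0 in genes of 1B described further on. Whether a line label stands for the same line and transformation event in both regimes was not tested.

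**Figure D2:**
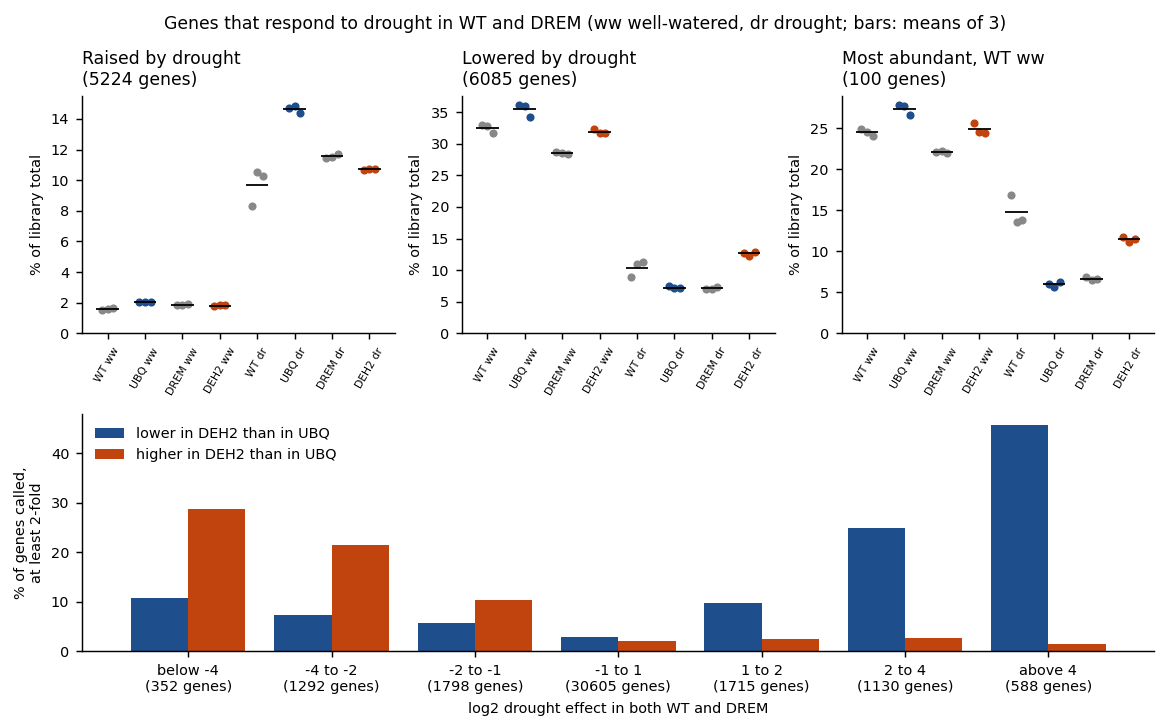
Upper panels: share of the library total (%) taken by genes raised and lowered by drought in WT and DREM and by the 100 most abundant genes of WT well-watered, in all 24 libraries, with UBQ in blue and DEH2 in red; bars are means of 3 libraries. Lower panel: share of genes (%) called at least 2-fold lower or higher in DEH2 than in UBQ under drought, by the log2 drought effect in WT and DREM; the share lower in DEH2 reaches 45.7% in genes raised more than 16-fold.

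Single genes of the lists went further. In the raised list, TraesCS2B02G600200 was at 92.8, 24.1 and 299.9 in DEH2 and at 34293, 30338 and 35802 in UBQ. UBQ was far above DEH2 in every library (log2 difference -8.55 ± 0.54 SE, limma adjusted p = 6.12e-10), and also above WT drought, at 1043 ± 91.2, and DREM drought, at 1263 ± 205 (SD, n = 3 each). TraesCS5B02G382300 was at 12.3, 4.08 and 74.2 in DEH2 and at 4974, 4430.0 and 4852 in UBQ (log2 difference -8.11 ± 0.76 SE, limma adjusted p = 4.83e-08). In both genes, replicate 3 was the highest of the DEH2 libraries.

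Some genes of the raised list were higher in DEH2. TraesCS5D02G326200 had 10137, 10796 and 9758 in DEH2 and 2555, 2577 and 2758 in UBQ, and TraesCS5A02G320300 had 6053, 6019 and 5800.5 against 1883, 1913 and 1879.6. The log2 differences were 1.96 ± 0.08 and 1.65 ± 0.06 (SE), with limma adjusted p of 9.98e-20 and 2.96e-21. DREM drought was closer to DEH2 and WT drought was below UBQ in both genes, at 7979 ± 472 and 1416 ± 56.6 in the first and 4495 ± 169 and 1711 ± 30.4 in the second (SD, n = 3 each).

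In the lowered list, TraesCSU02G167700 was at 3541, 3655 and 3507 in DEH2 and at 304.5, 260.8 and 272.6 in UBQ (log2 difference 3.67 ± 0.14 SE, limma adjusted p = 4.29e-13). TraesCS1D02G375100 was at 607.2, 471.7 and 475.7 in DEH2 and at 39.3, 17.6 and 47.5 in UBQ (log2 difference 3.96 ± 0.23 SE, limma adjusted p = 2.60e-10). The lines did not overlap in either. TraesCS3B02G181300 went the other way, at 349.0, 228.6 and 362.1 in DEH2 and at 10808, 10878 and 10586 in UBQ. It was higher in UBQ under drought than in UBQ well-watered (mean 2623 ± 2778, SD, n = 3), while WT, DREM and DEH2 were lower under drought than well-watered. TraesCS3D02G162500 had the same pattern at a lower level, with 43.3, 29.8 and 44.2 in DEH2 and 792.9, 793.1 and 763.9 in UBQ.

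The most abundant transcripts of well-watered leaves were also higher in DEH2. Of the 100 genes most abundant in WT well-watered, 88 were higher in DEH2 drought than in UBQ drought, 62 of them at least 2-fold, and 2 were lower. The median log2 difference was 1.27. Together they made up 11.4% ± 0.32 of the library total in DEH2 drought and 5.99% ± 0.32 in UBQ drought (SD, n = 3 each). WT drought was at 14.7% ± 1.8 and DREM drought at 6.66% ± 0.19 (SD, n = 3 each), so DEH2 lay between WT and the other lines. Well-watered, UBQ had the higher share, 27.4% ± 0.72 against 24.8% ± 0.62 in DEH2 (SD, n = 3 each), and 54 of the 100 genes were lower in DEH2 and 11 higher. Of the 500 most abundant genes, 397 were higher in DEH2 drought and 39 lower, with a median of 0.66. Over all genes outside the regions, 19.6% were higher, 5.45% at least 2-fold higher, and 20.2% lower. Other sets of abundant genes were also called often. The 100 most abundant over the 6 libraries had 74 higher and 17 lower, and the 100 most abundant in DREM drought had 65 and 20. The set from WT well-watered was chosen after the values of the lines had been seen.

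The third question was how the difference lay along the chromosomes. Medians over 1495 windows of 30 neighbouring genes with a mean of at least 30 passed 0.6 on the log2 scale in 12 windows, all on 4B and 6B, and the largest median elsewhere was 0.36 in size. This held for windows of 20 and 50 genes but not for shorter ones: of 63 windows of 10 genes past 0.6, 28 were on other chromosomes, the largest with a median of 2.38 in size on 1D, where UBQ was higher.

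**Figure D3:**
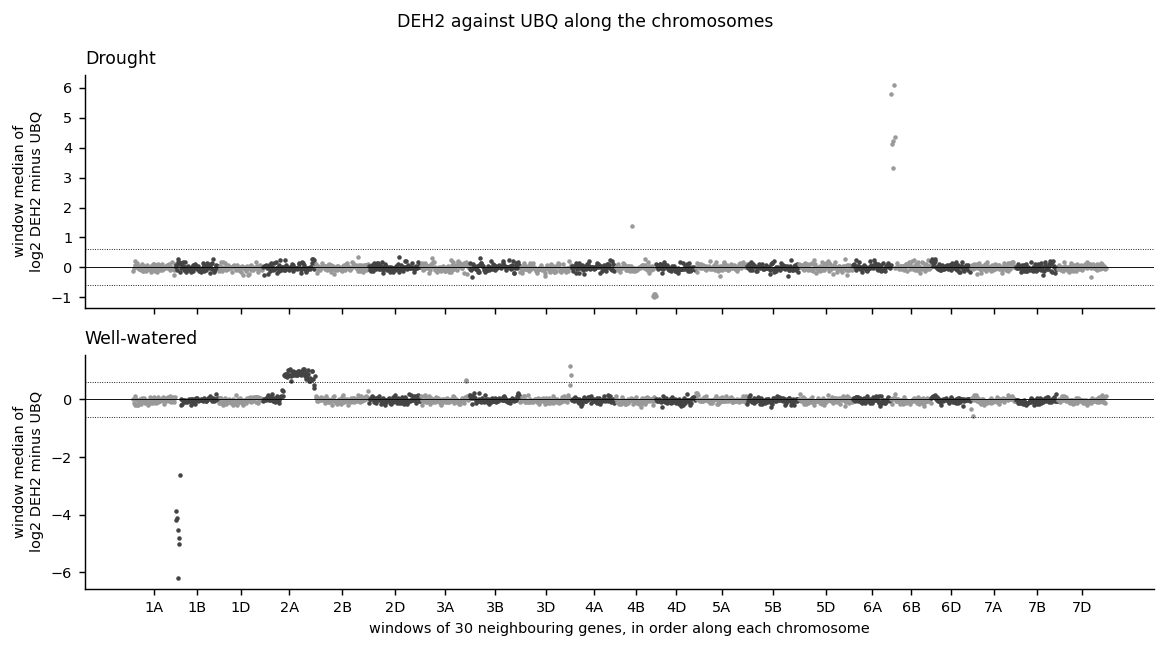
Median log2 difference, DEH2 minus UBQ, over windows of 30 neighbouring genes in order along the 21 chromosomes, under drought (upper panel) and well-watered (lower panel); dotted lines mark 0.6 and -0.6. Under drought the 12 windows past the lines are on 4B and 6B; well-watered, windows at the start of 1B reach a size of 6.19, higher in UBQ, and a long part of 2A lies near 0.84.

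In the 6B region, 365 of 951 identifiers passed the filter on low values. Of these, 300 were higher in DEH2 and 5 lower, 293 and 2 of them at least 2-fold; the background outside the regions was 39.9%, and the region was known for this contrast beforehand. The median log2 difference was 3.25, or 9.53-fold, and the summed value was 149719 ± 911 in DEH2 drought and 23412 ± 160 in UBQ drought (SD, n = 3 each). Well-watered, 39 genes of the region were higher in DEH2 and 21 lower, or 16.4% against 28.6% outside the regions, with a median of 0.03.

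The loss in UBQ was deep but not the same for every gene. Of 234 genes with a mean of at least 30 in DEH2 drought, 132 were at least 16-fold lower in UBQ, 76 had a log2 difference between 1 and 4, and 21 lay within 0.5 of 0. TraesCS6B02G023900 had 3129, 3109 and 2865 in DEH2 and 0, 0.933 and 12.9 in UBQ. TraesCS6B02G022400 had 2903, 2832 and 2865 in DEH2 and 0, 0.922 and 11.3 in UBQ. In both genes replicate 3 of UBQ carried most of the few reads. Summed over the 132 genes, the UBQ libraries kept 0.810%, 0.835% and 1.08% of the DEH2 mean, with 94, 89 and 67 genes under 3 reads.

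The loss was uneven along the region. From its start to TraesCS6B02G081500, 270 of 300 tested genes were higher in DEH2 and 0 lower, with a median of 3.78. From TraesCS6B02G081600 to TraesCS6B02G089700, 8 of 27 were higher, with a median of 0.33. Among these, TraesCS6B02G082900 had a log2 difference of 8.44, TraesCS6B02G082700 of 3.20 and TraesCS6B02G082100 of 3.03, so deeply lowered genes also lay in the first part of this stretch. Over the 27 genes the summed values were 7046.5 ± 180 in DEH2 and 5849.7 ± 150 in UBQ (SD, n = 3 each). From there to TraesCS6B02G094400, 21 of 27 were again higher, with a median of 2.84. This last part holds TraesCS6B02G093100, which stood at 17866, 16851 and 17263 in DEH2 and at 11.1, 12.0 and 69.7 in UBQ. The 11 tested genes from TraesCS6B02G094500 to TraesCS6B02G096400 had a median of -0.11, so the loss ended before the last identifier given for the region. These inner limits were set after the values had been seen.

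Of the 5 genes of the region that were lower in DEH2, 2 differed at least 2-fold. TraesCS6B02G094700, in the end part, had 397.6, 353.3 and 373.5 in DEH2 and 489.1, 536.1 and 482.4 in UBQ (log2 difference -0.42 ± 0.08 SE). The 2 larger differences lay amid lost genes. TraesCS6B02G091700 was at 0, 1.02 and 4.25 in DEH2 and at 60.5, 35.8 and 58.9 in UBQ. TraesCS6B02G092800, named after its values were seen, had means of 2.84 and 28.7, a log2 difference of -3.30. Transcripts assigned to both identifiers were thus present in UBQ under drought. The same-numbered spans of the related chromosomes showed no such shift: on 6A, 99 of 412 tested genes were higher in DEH2 and 58 lower (median 0.08), and on 6D, 115 of 468 were higher and 73 lower (median 0.09).

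**Figure D4:**
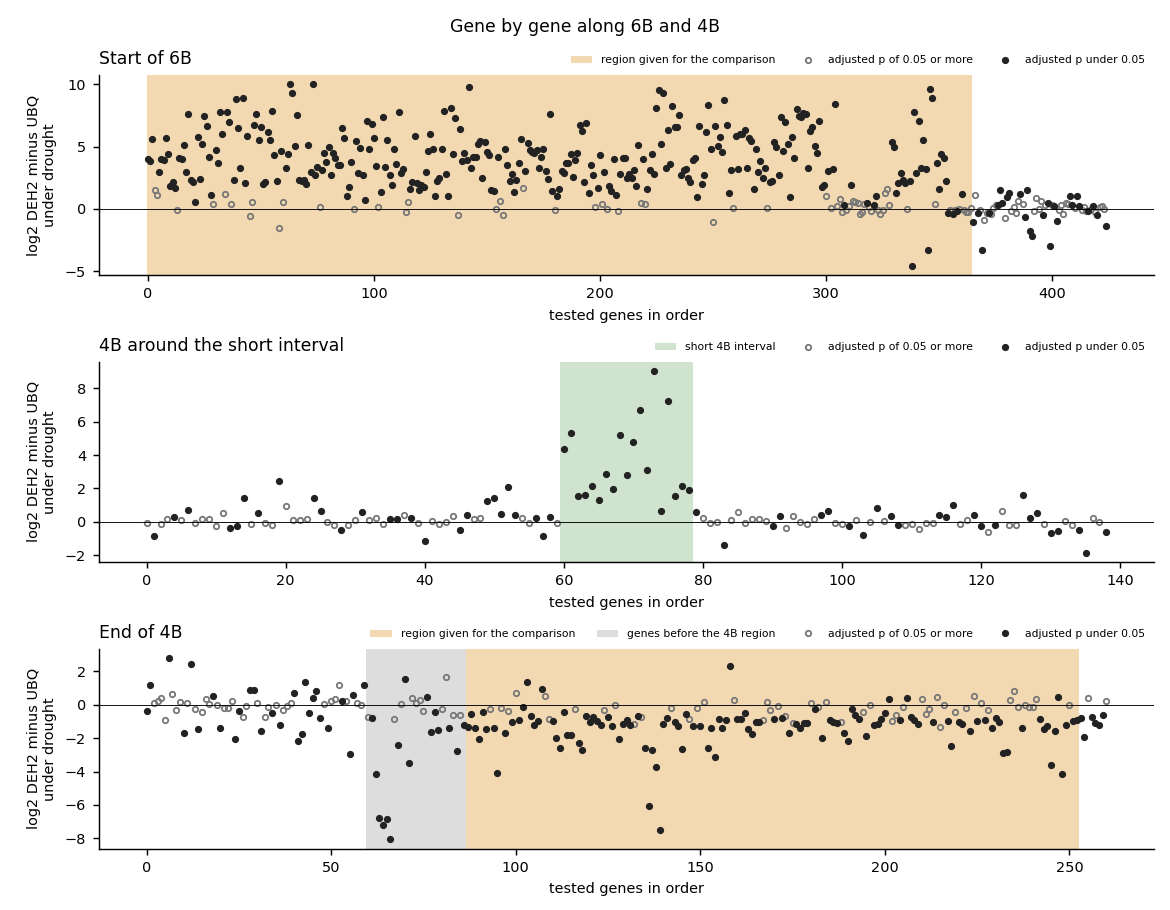
Log2 difference, DEH2 minus UBQ under drought, of each tested gene in order along the start of 6B, the middle of 4B and the end of 4B; filled points have an adjusted p under 0.05 (limma). Shading marks the 6B and 4B regions, the short 4B interval of 19 genes and the 27 genes before the 4B region; on 6B most points from TraesCS6B02G083700 to TraesCS6B02G089700 lie near 0, before the loss resumes.

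In the 4B region, 166 of 451 identifiers passed the filter. Of these, 110 were lower in DEH2 and 6 higher, 73 and 2 of them at least 2-fold, against the background of 39.9%. The median log2 difference was -0.95, which puts UBQ at 1.93 times DEH2, and the quartiles of the genes were -1.35 and -0.30. The summed value was 76743 ± 744 in DEH2 drought and 215250 ± 4430 in UBQ drought (SD, n = 3 each). A large part of this difference lay in 6 neighbouring genes, from TraesCS4B02G363700 to TraesCS4B02G364200. They summed to 14389 in DEH2 and 83870 in UBQ and were named after their values were seen. The sums therefore do not describe a common shift. Of 132 genes with a mean of at least 30 in the higher line, 76 lay between -1.5 and -0.5, 29 within 0.5 of 0, and 17 below -2. Well-watered, 22 genes were higher in DEH2 and 20 lower, or 25.3%, with a median of 0.00. The last 166 tested genes of 4D had 30 higher and 37 lower, with a median of -0.08. Their summed value was nevertheless higher in UBQ drought, at 288071 ± 4018 against 136797 ± 960 in DEH2 drought (SD, n = 3 each). The largest part of it was TraesCS4D02G343000, with means of 154018 in UBQ and 63455 in DEH2, named after its values were seen.

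TraesCS4B02G363800 was among the genes far beyond the common shift, at 12.3, 14.4 and 31.4 in DEH2 and 1275, 1200.3 and 1237 in UBQ. TraesCS4B02G364100, close to it, had 0, 0 and 5.07 in DEH2 and 300.3, 332.4 and 358.9 in UBQ. Both were low in WT drought, at 8.29 ± 3.67 and at 0 in all libraries, and in DREM drought, at 27.4 ± 3.59 and 2.38 ± 4.13 (SD, n = 3 each). Against the trend, TraesCS4B02G356100 had 194.0, 173.6 and 219.8 in DEH2 and 102.0, 113.9 and 90.8 in UBQ, and TraesCS4B02G380200 had 4146, 3955 and 3685 against 3096, 2985 and 2738. In both, well-watered UBQ was above well-watered DEH2 (log2 difference DEH2 minus UBQ of -0.92 and -0.37), so the order of the lines turned with drought.

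Genes just before and just after the 4B region were shifted as well. Of 27 tested genes from TraesCS4B02G347700 to TraesCS4B02G351900, 14 were lower in DEH2 and 2 higher, with a median of -0.82. Of the 60 before them, 15 were lower and 13 higher, with a median of 0.00. Of the 8 after TraesCS4B02G398200, 6 were lower and 0 higher, with a median of -0.79. TraesCS4B02G348600 alone made up most of the summed value of the 27 genes, with 14747, 14362 and 13899 in DEH2 and 75906, 77590.2 and 73188 in UBQ. Well-watered it stood the other way, at 26739 ± 2046 in DEH2 and 6101 ± 1697 in UBQ (SD, n = 3 each). TraesCS4B02G348400 was near silent in DEH2, at 0, 1.02 and 10.2, and at 763.6, 676.0 and 829.3 in UBQ.

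A second place on 4B, from TraesCS4B02G158100 to TraesCS4B02G161600, differed in the sense of 6B. All 19 tested genes of its 35 identifiers were higher in DEH2, 18 at least 2-fold, with a median log2 difference of 2.83, or 7.12-fold. The summed value was 20228 ± 703 in DEH2 drought and 3167 ± 105 in UBQ drought (SD, n = 3 each). In the remaining 6 groups it was between 20809.6 and 24895 as a mean of 3 libraries. TraesCS4B02G160600, the most abundant gene of the interval in DEH2, had 4716, 4740.0 and 4377 in DEH2 and 23.7, 46.8 and 71.2 in UBQ.

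The first limit of this interval was sharp. TraesCS4B02G158000, the last gene before it, had 366.3, 440.3 and 361.4 in DEH2 and 414.5, 381.2 and 407.8 in UBQ, which overlap. Its neighbour TraesCS4B02G158100, the first gene inside, had 303.3, 269.5 and 280.4 in DEH2 and 19.3, 15.8 and 7.10 in UBQ. At the other limit the log2 difference went from 1.93 ± 0.10 in TraesCS4B02G161600 to 0.57 ± 0.20 (SE) in TraesCS4B02G161700. The latter gene was still called (limma adjusted p = 0.0188). The 30 tested genes before the interval had a median of 0.20, with 12 higher in DEH2 and 3 lower. The 30 after it had a median of 0.05, with 6 higher and 5 lower. The interval was found in these libraries, so its counts are a description. It was not shifted between the lines in well-watered leaves, where the median was 0.10.

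**Figure D5:**
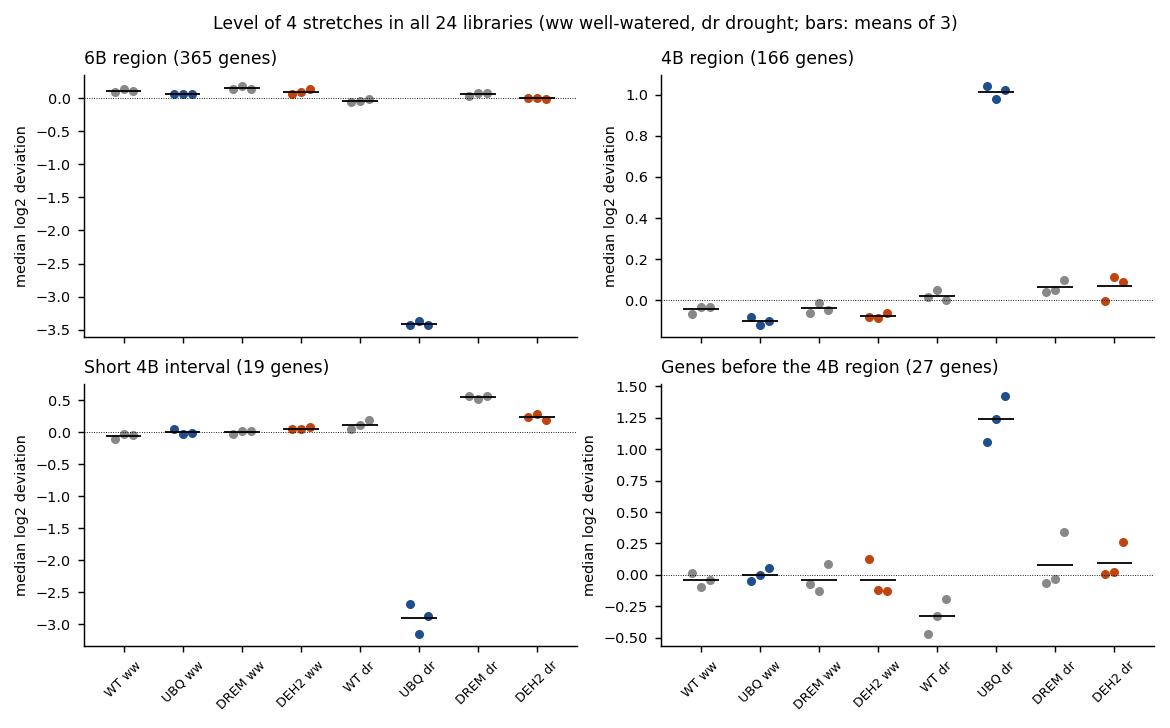
Median log2 deviation of 4 stretches in each of the 24 libraries from the median of the 8 group means, with UBQ in blue and DEH2 in red; bars are means of 3 libraries. The 3 UBQ drought libraries stand apart in all 4, between -3.43 and -3.37 in the 6B region and between -3.15 and -2.68 in the short 4B interval, while DEH2 drought lies with the other groups.

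Outside the 4B and 6B regions, with the short 4B interval and the genes flanking the 4B region still included, the share of genes called was between 35.6% for genes without a chromosome and 44.2% on 4B. Subgenomes A, B and D had 39.2%, 40.1% and 40.5%. At 2-fold and more, genes lower in DEH2 outnumbered the higher ones by 1.25 to 1.59 times in homoeologous groups 1 to 5 and 7, while in homoeologous group 6 the numbers were 432 and 425.

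Genes without detectable transcripts in 1 line were counted next. Under drought, 60 genes were under 3 reads in every UBQ library and at 30 or more in every DEH2 library, and 50 of these were in the 6B region. The other 10 were on 9 chromosomes, counting genes without a chromosome as 1, and 9 of them were at 30 or more in every WT drought library. In DEH2, 53 genes were under 3 reads in every library and at 30 or more in every UBQ library. They were spread over 18 chromosomes with 0 in either region. Of the 53, 40 were also under 3 reads in every WT well-watered library and 37 in every WT drought library. Only 1 was at 30 or more in every WT drought library. With a minimum of 100 in the other line, the numbers were 23, of which 22 in the 6B region, and 4.

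The last question was whether the same lines differed alike without drought. Outside the regions, 17020 genes were called between DEH2 and UBQ well-watered, or 28.6%, with 8356 higher in DEH2 and 8664 lower. At 2-fold and more, 2451 were higher (4.12%) and 2473 lower (4.15%). Without the 1B and 2A stretches 15409 of 57289 were called. Of the 23738 genes called under drought, 5473 were called in the same direction well-watered (23.1% of the drought calls and 32.2% of the well-watered calls) and 3512 in the opposite direction (14.8% and 20.6%). The difference between the regimes itself passed the test in 19719 genes (33.1%), 9805 in which DEH2 minus UBQ was greater under drought and 9914 in which it was smaller. The difference between regimes was at least 2-fold in 4063 genes upward (6.82%) and in 4594 downward (7.71%). Without the 1B and 2A stretches the number was 18331. Of the genes called under drought, 13499 (56.9%) also had a called difference between regimes in that direction. The difference between regimes contains the drought contrast itself, so part of this share is built in.

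The largest differences between regimes on the positive side were in the 1B stretch and came from the well-watered libraries. TraesCS1B02G075200 was at 8.41 ± 4.80 in DEH2 well-watered and 24154 ± 2439.7 in UBQ well-watered (SD, n = 3 each), against 933.0 ± 44.6 and 144.9 ± 8.0 under drought. TraesCS1B02G052800 was at 0 in all 3 DEH2 well-watered libraries and at 1237 ± 87.4 (SD, n = 3) in UBQ well-watered. DREM had the low level under drought instead, with means of 0.934 in TraesCS1B02G075200 and 0 in TraesCS1B02G052800. Well-watered, its means were 8089 and 1011 in these genes. Whether the 2 groups labelled DREM came from the same line and transformation event was not tested. Outside the 1B and 2A stretches and the 4B and 6B regions the largest was TraesCS1B02G093900, chosen after these values were seen, with 397.4, 346.5 and 356.2 in DEH2 drought and 6.14, 4.60 and 3.52 in UBQ drought. Well-watered it was the higher in UBQ, at 423 ± 16.5 against 43.2 ± 25.9 (SD, n = 3 each). On the negative side, TraesCS1B02G481300 had 0, 0 and 10.1 in DEH2 drought and 443.5, 437.3 and 397.0 in UBQ drought, while well-watered it was the higher in DEH2, at 54.7 ± 13.6 against 8.41 ± 5.18 (SD, n = 3 each).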

How the data were processed

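RNA from leaves was extracted with RNeasy kits, made into TruSeq libraries and sequenced on a NovaSeq with paired 150-cycle reads, per the labels' protocols. The deposited signal is a table of normalized counts, gene counts that the authors scaled between libraries. CASAVA, Trimmomatic, STAR, Salmon and DESeq2 are named in the submitters' processing notes without versions, and no source used here names a genome build. Low values lie on whole multiples of a step, from which depths were estimated: 1 read was worth 0.687 to 1.02 in the 6 libraries, so that 3 reads correspond to 2.06 to 3.05. Counting intervals and floors cover counting error only. Reads of near-identical homoeologous copies may have been divided between identifiers, so levels of single copies are uncertain.

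Values were tested as log2(value + 1) with limma 3.58.1 in R 4.3.3 (trend and robust options), which understates differences of low genes. Genes with a value of 10 in at least 3 libraries were kept, the 8 groups were fitted together with 16 residual degrees of freedom, and p-values were adjusted over all tested genes by Benjamini-Hochberg. The procedure was tested on simulated data. Named genes are the 2 with the largest difference in each direction in each class, among genes called and not overlapping between lines. The classes are genes outside the regions with a mean of at least 50 in the higher line, genes outside with at least 500 in both lines, each region, each drought list with at least 500 in the higher line, and the difference between regimes with at least 50 in the highest group. The 3 most abundant genes were added. Genes at the limits of intervals and others said to be so were chosen after their values were seen. The members and lists were chosen with earlier results of these data known. Functional gene lists had 0 matched members and were not used. Replicate numbers did not pair the libraries. Alternatives were other pseudocounts, filters, scalings, sets of groups, a replicate block, window sizes and leaving out libraries. Python 3.11.15, pandas 2.3.3, numpy 2.4.6 and scipy 1.17.1 were used for summaries.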

Additional observations from a re-analysis of the deposited data

Results flagged for a closer look

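The DEH2 minus UBQ difference itself differed between drought and well-watered libraries, by limma's test of that difference with an adjusted p under 0.05, in 19719 genes outside the 4B and 6B regions. The values below are log2 differences between regimes, drought minus well-watered. No explanation was tested. The medians were -0.96 in the 4B region and 3.30 in the 6B region.

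Outside the regions, the value was 8.52 for TraesCS4B02G161000, 8.20 for TraesCS5B02G076900, -10.64 for TraesCS2B02G599800 and -8.20 for TraesCS5D02G388700. Among genes abundant in both lines it was 1.47 for TraesCS6D02G016900, 2.41 for TraesCS2A02G342600 (in the 2A stretch), -5.71 for TraesCS6A02G132200 and -4.52 for TraesCS6A02G350500. It was -0.25 for TraesCS1D02G375700 and -0.37 for TraesCS1B02G388700, which are among the most abundant genes. In the 4B region it was 1.85 for TraesCS4B02G356100, 0.79 for TraesCS4B02G380200, -9.44 for TraesCS4B02G364100 and -8.62 for TraesCS4B02G363800. In the 6B region it was 9.69 for TraesCS6B02G023900, 10.33 for TraesCS6B02G022400 and -2.97 for TraesCS6B02G091700.

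Genes named for this difference had 14.18 (TraesCS1B02G075200) and 13.92 (TraesCS1B02G052800), both in the 1B stretch, and -10.27 (TraesCS1B02G481300). Chosen after the values were seen, TraesCS1B02G093900 had 9.44 and TraesCS2A02G122400 had 9.17. In the raised list the value was 1.39 for TraesCS5D02G326200, 0.90 for TraesCS5A02G320300, -10.04 for TraesCS2B02G600200 and -6.62 for TraesCS5B02G382300. In the lowered list it was 4.79 for TraesCS1D02G375100, 5.15 for TraesCSU02G167700, -8.29 for TraesCS3B02G181300 and -5.44 for TraesCS3D02G162500.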

How the results depend on the processing

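Under the alternatives, 161 counts and shares stayed within 1.5 times the reported value and 5 did not. With a mean of at least 50 required, 142 genes of the 6B region were higher in DEH2 and 3576 genes outside the regions differed at least 2-fold, since fewer genes were tested. With at least 100 in the other line, 4 genes were undetected in DEH2 and 23 in UBQ. Windows of 10 genes, chosen after seeing the data, put 630 genes in windows past 0.6, and 28 of the 63 windows were off 4B and 6B (largest 2.38 in size), where windows of 20, 30 and 50 genes had 0. Of the named genes, TraesCS1B02G388700 turned to 0.83 (limma adjusted p = 0.00113) and TraesCS1D02G375700 to 0.32 (limma adjusted p = 0.214) under quantile normalization, and the cause was not tested. TraesCSU02G056800 ranged from -0.76 to 0.29 with 1 library left out, turned to 0.29 without UBQ drought replicate 3 and to 0.32 without replicate 3 of both lines. Without replicate 3 of both, TraesCS1D02G375700 was at -0.10 (limma adjusted p = 0.117). The other 537 values of named genes kept direction and side of the threshold.

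Leaving out 1 library at a time gave 20514 to 21281 genes outside the regions, 7024 to 7505 of them at least 2-fold, 99 to 106 lower in the 4B region and 292 to 295 higher in the 6B region. A replicate block gave 23630 genes outside the regions, though same-numbered libraries did not deviate together (r of 0.0054, -0.025 and -0.017), and the numbers are not known to pair plants. Scaling to the library sum gave 21332 genes, of which 40.8% were higher in DEH2 against 49.3% as reported. Near-silent genes are limited by depth: below 3 reads, absence and low expression could not be told apart.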

Other observations

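Some genes that differed at least 2-fold under drought stood next to each other. Outside the regions, 1252 of the 4496 genes lower in DEH2 (27.8%) were in runs of neighbouring tested genes. Of the 3243 higher genes, 661 (20.4%) were. The lower genes were also the larger share of tested genes, 7.55% against 5.45%, so the 2 shares in runs cannot be compared. The share that random placement would give was not computed. Some runs lay at similar identifier numbers on homoeologous chromosomes. Whether these places correspond was not tested. From TraesCS1A02G265600 to TraesCS1A02G266100, 6 genes had a median log2 difference of -3.20 and summed to 2837 in DEH2 and 26901 in UBQ. From TraesCS1D02G265800 to TraesCS1D02G266200, 5 genes had -3.26. On 1B, 5 genes from TraesCS1B02G267600 to TraesCS1B02G268000 had -3.02, and 4 genes from TraesCS1B02G276500 to TraesCS1B02G277000 had -2.75. A run of 6 genes from TraesCS7A02G201100 to TraesCS7A02G201600 had -4.33 and one of 6 genes from TraesCS7D02G204200 to TraesCS7D02G204700 had -4.15. Whether the runs hold copies of one another, between which reads could be divided, was not tested. In the other direction, 6 genes from TraesCS1B02G448700 to TraesCS1B02G449400 had a median of 2.46. These runs were chosen after the values were seen.

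Single libraries held traces of genes that the other libraries of their group lacked, and replicate 3 had the most such genes in both lines. In DEH2 replicate 3, 9 of 13 such genes had 3 reads or more, at 1.45% of the summed UBQ level, against 2 of 6 genes at 1.86% in replicate 1 and 0 of 4 at 0.137% in replicate 2. In UBQ replicate 3, 25 of 48 had 3 reads or more, at 0.550% of the summed DEH2 level, against 1 of 24 at 0.0717% in replicate 1 and 2 of 25 at 2.73% in replicate 2. The number of genes was thus highest in replicate 3, but the percentage was not. These genes had at least 100 in the other line.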
